A study of Sus scrofa with 35 samples.

Results

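The HSP40 co-chaperones, also named DNAJ proteins, were followed in a back muscle of the pig, the longissimus dorsi. The 8 genes DNAJA2, DNAJA3, DNAJB1, DNAJB4, DNAJB5, DNAJB6, DNAJC3 and DNAJC7 were chosen by name, with earlier results of these data known. Every non-control probe carrying one of these names in the scanner files was used. This gave 16 of the 60305 probes, under 8 of the 45222 names on the array. All 16 probes passed the filter on dim probes, which 41517 probes of 29200 names passed. Gene expression was measured on 35 one-colour arrays, each with the RNA of 1 muscle sample, from castrated male Creole, Large White and F1 (Large White × Creole) pigs kept under thermoneutral conditions (TN) or heat stress (HS). The groups held 6 arrays each, except F1 HS with 5, which made 18 TN and 17 HS arrays. By the sample labels TN pigs were at 24 °C and HS pigs at 30 °C. The growth protocol states a heat challenge of 5 days at 32 °C instead. By the methods, HS pigs were slaughtered after 5 days at 32 °C or 1 day less, and no label gives the day. The disagreement on temperature could not be settled here. Per the methods, each breed consisted of a few sets of littermates, and TN pigs were slaughtered before the temperature rise and HS pigs after it, from other pens. Slaughter day and pen therefore cannot be told apart from temperature, and littermates count as independent animals in every test below.

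HSP40 proteins carry a J domain, through which they stimulate the ATPase of HSP70, and they deliver unfolded client proteins to it. They are sorted by structure into type A (a zinc finger and a glycine/phenylalanine-rich stretch beside the J domain), type B (the rich stretch without the zinc finger) and type C (the J domain alone in common). In muscle, HSP70 and its co-chaperones are known for keeping contractile proteins folded and for clearing damaged ones, and several family members are linked to inherited myopathies.

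The array reads each gene through probes of 60 bases, whose sequences stand in the scanner files. They are shown for the genes with probes called between temperatures, for DNAJB1, where the probes fell into sets that moved apart, and for DNAJA3, which was not called, for the signal it shares with a DNAJA2 probe. Probes that may lie in the untranslated end of the transcript are shown by a stretch of 30 bases, and capitals mark the hexamer AATAAA, the usual polyadenylation signal. The probes were not matched to transcripts here, so the strand that each reads was not checked. The DNAJA2 pair comes first, with the leading probe by its last 30 bases and the other whole.
DNAJA2 O10968: tacaaatagAATAAAgacttcatagcctgt
DNAJA2 A_72_P205852: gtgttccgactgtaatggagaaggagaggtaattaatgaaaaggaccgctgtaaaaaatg
The probe of DNAJA3 is shown by its last 30 bases, and it was the only other probe of the 16 with the hexamer, which 10.3% of all 60305 probes held as written.
DNAJA3 O10358: ataatttactacAATAAAgcatctactagc
Both probes of DNAJC7 are shown by their first 30 bases, and that of DNAJB5 whole.
DNAJC7 O8109: ttcatcatgtctccacgtctttagagcagt
DNAJC7 A_72_P179831: gggggtggacagggcagcttgtgaattttt
DNAJB5 O607: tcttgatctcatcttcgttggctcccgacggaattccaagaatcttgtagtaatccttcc
Of the 5 probes of DNAJB1, the leading one is shown by its first 30 bases, and A_72_P260797 and A_72_P268464 by the 25 bases they share, the only stretch of 20 bases or more common to any pair of the 16 probes.
DNAJB1 O11858: acaaatgtctgttccctacaggccagtctg
DNAJB1 A_72_P260797 and A_72_P268464: CAGTCCACAGCAGCTGCTGTTCTCT

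All values below are log2 of the quantile-normalised median spot intensity, and differences are on that log2 scale. Where a gene had several probes, the one with the highest mean leads. The level of a probe was not set against that of another probe, since probes differ in how they bind. Each of the 16 probes was well above background on 35 of 35 arrays, and none was saturated.

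The tissue carried its defining markers: all 12 skeletal muscle genes tested were measured, with means at percentiles 92.7 to 99.998 of the kept probes. Several measures moved with temperature. The mean of the 12 muscle markers was 17.94 ± 0.06 in TN and 17.85 ± 0.08 in HS (SD; n = 18 and 17). The mean of 15 measured leukocyte markers ranged from 7.73 to 10.5 in TN and from 9.15 to 10.9 in HS (difference 0.72, SE 0.22), and 14 of the 15 were higher in HS. The mean of 12 connective tissue markers was 0.26 higher (SE 0.08), that of 7 endothelial markers differed by -0.18 (SE 0.07) and that of 4 blood cell markers by -0.37 (SE 0.09). Of the blood cell markers HBB was at -1.21 and SLC4A1 at 0.37. The arrays were also brighter in HS before normalisation, by 0.18 at the 75th percentile (SE 0.07), while the 6 bright spike-in controls differed by 0.03 (SE 0.04). In bulk muscle, fewer cells of a type and less RNA per cell cannot be told apart.

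In HS the leading probes of 3 of the 8 genes were lower and none higher at a threshold of 0.05 on the Benjamini-Hochberg adjusted p. Those of DNAJC7 and DNAJA2 fell by 0.28 and 0.24, and the probe named DNAJB5 by 0.17. Over all 16 probes 5 fell: both of DNAJC7, both of DNAJA2 and that named DNAJB5. This last probe appears to be written opposite to the coding strand, so it may not read DNAJB5 mRNA. Values given for DNAJB5 below and in the figures are those of this probe as named. The array as a whole had 16.0% of its 41517 probes called, 7.73% higher and 8.30% lower, and by leading probes 15.0% of 29200 names. The median difference was -0.13 over the 8 leading probes and -0.02 over all names. Since the 8 genes were chosen with earlier results of these data known, no excess over the array can be read from these values. An unadjusted p under 0.05 was reached by 7 of the 16 probes, against 30.7% of the array. The share of higher calls over the array depended on scaling: it was 48.2% as reported, 27.2% with scaling to the 75th percentile, 37.5% with the processed signal and 86.6% with scaling to the spike-in controls.

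**Figure D1:**
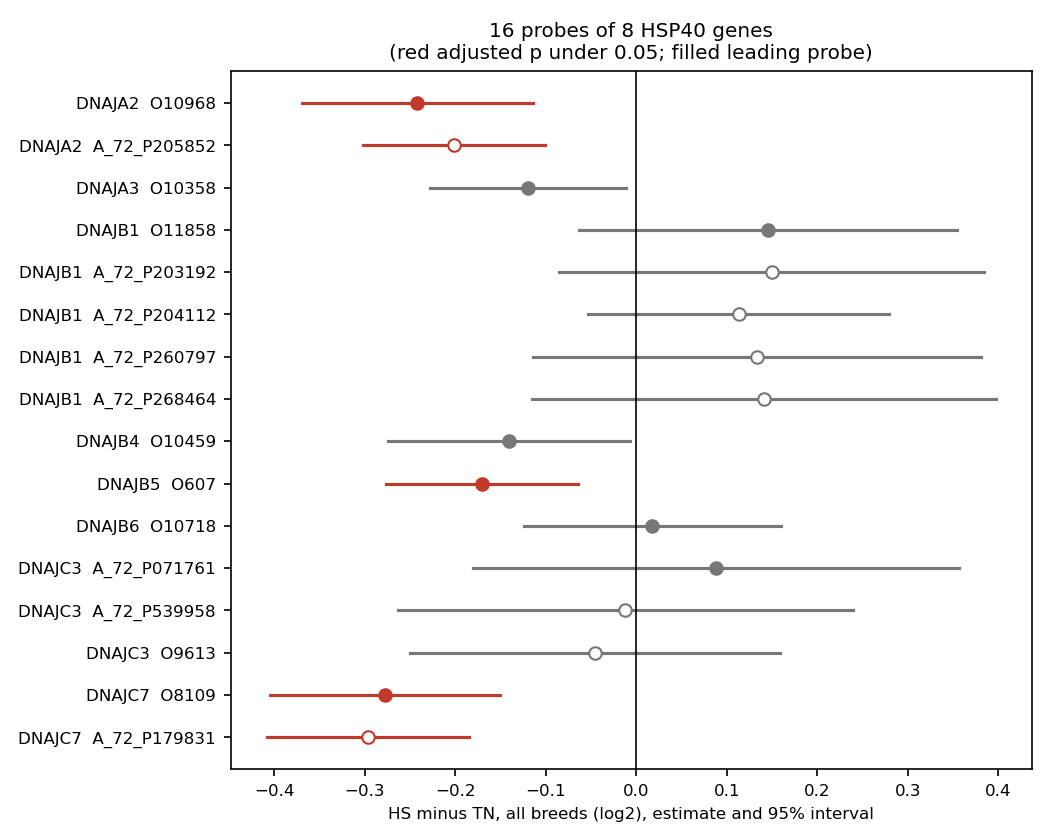
Difference between HS and TN over all breeds (x axis, log2) for each of the 16 probes, with its 95% interval. Filled points are leading probes and red marks an adjusted p under 0.05. The 5 red probes, those of DNAJA2 and DNAJC7 and that named DNAJB5, lie left of 0 with their intervals. The 5 DNAJB1 probes lie right of 0 with intervals that cross it.

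DNAJC7, a type C protein whose TPR repeats bind both HSP70 and HSP90, had the largest difference of the 8. Its leading probe O8109 ran from 12.58 to 12.78 in Creole TN (median 12.71) and from 12.06 to 12.56 in Creole HS (median 12.27), so that no array of the first group was as low as any of the second. In Large White the TN arrays ran from 12.40 to 13.07 (median 12.77) and the HS arrays from 12.22 to 12.71 (median 12.50). The F1 TN arrays ran from 12.44 to 12.76 (median 12.54), and the 5 F1 HS arrays stood at 12.28, 12.35, 12.44, 12.47 and 12.60. In both of these breeds the groups overlapped. How many probes of the array separated in Creole was not counted. Over all breeds the mean was 12.67 ± 0.19 in TN and 12.40 ± 0.19 in HS (SD; n = 18 and 17), and 8 HS arrays lay below every TN array. The difference was -0.28 (SE 0.06, adjusted p = 0.00313), so that intensity fell by 17.5%, with 16 of 17 HS arrays below the TN mean of their breed. The second probe, A_72_P179831, differed by -0.30 (SE 0.05, adjusted p = 0.000578), and all 17 of its HS values lay below the TN median. Across the 35 arrays the 2 probes correlated with Pearson's r of 0.877 (Spearman's rho 0.873). Within the 5 slides, the sets of arrays hybridised together, O8109 differed by -0.59 to -0.03 and A_72_P179831 by -0.37 to -0.17, so both were lower in HS on every slide. The slides did not hold the breeds equally, so breed enters these differences. Slide 5, with -0.59 for O8109, set 1 Creole HS array against 2 Large White TN arrays. With scaling to the spike-in controls neither probe passed (-0.17 and -0.19, adjusted p = 0.2 and 0.0863).

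DNAJA2, a type A co-chaperone of cytosolic HSP70, was lower in HS by both probes. The leading probe O10968 ran from 10.68 to 11.20 in TN (median 10.996) and from 10.43 to 11.15 in HS (median 10.70), with 6 HS arrays below every TN array. By breed, the median went from 10.95 in TN to 10.66 in HS in Creole, from 10.93 to 10.80 in F1 and from 11.07 to 10.69 in Large White. The TN mean was 10.98 ± 0.16 and the HS mean 10.74 ± 0.20 (SD; n = 18 and 17), a difference of -0.24 (SE 0.06, adjusted p = 0.00848, 14 of 17 HS arrays lower). In Large White HS, 1 array stood at 11.09, while the next lay at 10.70. The other probe, A_72_P205852, differed by -0.20 (SE 0.05, adjusted p = 0.00602, 16 of 17 arrays lower). On it the 5 F1 HS arrays ran from 9.37 to 9.45, below all 6 F1 TN arrays (9.60 to 9.84), while in the other breeds the groups overlapped. The difference of this probe within F1 was not called (-0.29, SE 0.09, adjusted p = 0.251). How many probes of the array separated in F1 was not counted. The 2 probes correlated less closely than those of DNAJC7 (r = 0.613, rho = 0.61, 35 arrays). Both were lower in HS on all 5 slides, with differences of -0.40 to -0.06 for the leading probe, the -0.40 from slide 5. Neither passed with scaling to the spike-in controls (-0.09 and -0.05, adjusted p = 0.491 and 0.723), and with scaling to the array median the leading probe gave -0.16 (adjusted p = 0.0616).

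DNAJA3 is a type A protein of the mitochondrion, where it works with the mitochondrial HSP70. Its only probe had a mean of 12.92 ± 0.17 in TN and 12.80 ± 0.16 in HS (SD; n = 18 and 17). The difference of -0.12 (SE 0.05) did not pass after adjustment (adjusted p = 0.119), although 14 of 17 HS arrays lay below the TN mean of their breed and 16 of 17 below the TN median. It passed with scaling to the 75th percentile (-0.17, adjusted p = 0.0345) and with the processed signal (-0.20, adjusted p = 0.0213). It shrank to -0.015 with the leukocyte markers as a covariate, -0.029 with the muscle markers, -0.065 with brightness and -0.017 with scaling to the spike-in controls (adjusted p between 0.549 and 0.904). The probe correlated with the mean of the leukocyte markers at r = -0.687 (rho = -0.697; r = -0.667 after removing group means; 35 arrays). Creole TN had the highest mean of the 6 groups (13.01 ± 0.17, SD) and F1 HS the lowest (12.69 ± 0.18), and no neighbouring groups in that order differed by more than their pooled SD.

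DNAJB5, a type B co-chaperone known for its part in the export of class II histone deacetylases from the nucleus of muscle cells, was dim on the array, with a mean at percentile 19.8 of the kept probes. The TN arrays ran from 6.03 to 6.58 (median 6.33) and the HS arrays from 5.80 to 6.33 (median 6.16). All 17 HS arrays lay below the TN median, and 3 lay below every TN array. The means were 6.32 ± 0.15 in TN and 6.15 ± 0.14 in HS (SD; n = 18 and 17), a difference of -0.17 (SE 0.05, adjusted p = 0.0236, 16 of 17 arrays lower). Within slides it ranged from -0.40 to 0.02, negative on 4 of 5. With the background-subtracted processed signal the difference was -0.35, and with scaling to the spike-in controls -0.12 (adjusted p = 0.32). Translated, the reverse complement of the O607 sequence printed above reads as a J domain. The printed bases thus appear to be those of the strand opposite to the coding one. Whether O607 reads DNAJB5 mRNA was not tested, so the values belong to the probe as named in the files.

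DNAJB4, another cytosolic type B protein, was dimmer still, at percentile 15.6. Its mean was 6.15 ± 0.18 in TN and 6.004 ± 0.20 in HS (SD; n = 18 and 17), and 6 HS arrays lay below every TN array. The difference of -0.14 (SE 0.07) did not pass (adjusted p = 0.139, 14 of 17 arrays lower). With scaling to the 75th percentile it was -0.25 and passed (adjusted p = 0.0323). It was -0.065 with brightness as a covariate, -0.086 with the muscle markers, -0.073 after normexp background correction and -0.10 with scaling to the spike-in controls.

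DNAJB1, the classical stress-inducible HSP40 and a target of the heat shock factor HSF1, was higher in HS on all 5 of its probes, by 0.11 to 0.15, and none passed (adjusted p between 0.354 and 0.489). On A_72_P203192 the sign turned with the leukocyte markers (-0.17) and the muscle markers (-0.05) as covariates, and the difference shrank to 0.0027 with the connective tissue markers and 0.0061 with brightness. The leading probe O11858 had a mean of 12.01 ± 0.27 in TN and 12.15 ± 0.34 in HS (SD; n = 18 and 17), a difference of 0.15 (SE 0.10, 95% interval -0.06 to 0.35). Only 10 of 17 HS arrays lay above the TN mean of their breed. The medians nearly coincided, at 12.01 in both TN and HS, and 3 HS arrays (F1 replicate 2 at 12.83, Creole replicates 5 and 6 at 12.51 and 12.88) exceeded every TN array. The other 14 HS arrays lay within the TN range. In F1 the TN arrays ran from 11.69 to 12.25 (11.94 ± 0.19, SD) and the HS arrays stood at 11.94, 11.99, 12.09, 12.50 and 12.83. In Creole the TN arrays ran from 11.82 to 12.35 and the HS arrays from 11.59 to 12.88. In Large White it was the TN group that was spread, from 11.44 to 12.50, whereas the 6 HS arrays lay between 11.98 and 12.18. Within slides the difference ran from -0.12 to 0.88, and the highest value came from slide 5, which held 1 HS array.

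The 5 DNAJB1 probes did not give 1 profile over the arrays. O11858, A_72_P260797 and A_72_P268464 correlated at 0.931 to 0.951 (Pearson, 35 arrays; Spearman 0.894 to 0.938), and the last 2 share the 25 bases printed above. A_72_P203192 and A_72_P204112, which carry a common transcript accession in the files, correlated with each other at 0.646 and with the former at 0.307 to 0.597. On A_72_P203192 F1 TN replicate 2 stood at 12.18, while no other F1 TN array exceeded 11.01. Which of the probes reads which form of the transcript was not checked.

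DNAJB6, a type B protein of the muscle Z-disc in which mutations cause a limb-girdle muscular dystrophy, had means of 9.24 ± 0.21 in TN and 9.26 ± 0.19 in HS (SD; n = 18 and 17). The difference was 0.02 (SE 0.07, 95% interval -0.12 to 0.16, adjusted p = 0.897), and its sign changed when brightness, leukocyte or muscle markers entered the fit. The means of the 6 groups spanned 0.11, less than for any other of the 8 leading probes.

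DNAJC3, a type C protein of the endoplasmic reticulum and a co-chaperone of the HSP70 named HSPA5, had the widest spread of the 8 leading probes over the arrays (SD 0.391). This probe ran from 8.73 to 10.26 in TN (median 9.23) and from 8.97 to 10.58 in HS (median 9.30), and the groups overlapped almost wholly. The difference was 0.09 (SE 0.13, 95% interval -0.18 to 0.36, adjusted p = 0.695), and the other 2 probes gave -0.01 and -0.05. The 5 highest arrays were Large White HS replicate 5 (10.58), F1 TN replicate 2 (10.26), Creole HS replicate 1 (10.12), Large White TN replicate 6 (9.99) and Large White HS replicate 1 (9.83). High arrays were thus found in every breed and in both conditions. The 3 probes correlated at 0.785 to 0.944 (Pearson, 35 arrays; Spearman 0.673 to 0.875). The leading probe correlated with the mean of the leukocyte markers (r = 0.736, rho = 0.717; r = 0.789 after removing group means; 35 arrays, which share slides and litters). With that mean as a covariate the difference turned to -0.28 (SE 0.10, adjusted p = 0.0775), and A_72_P539958 passed at -0.39 (adjusted p = 0.00271).

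**Figure D2:**
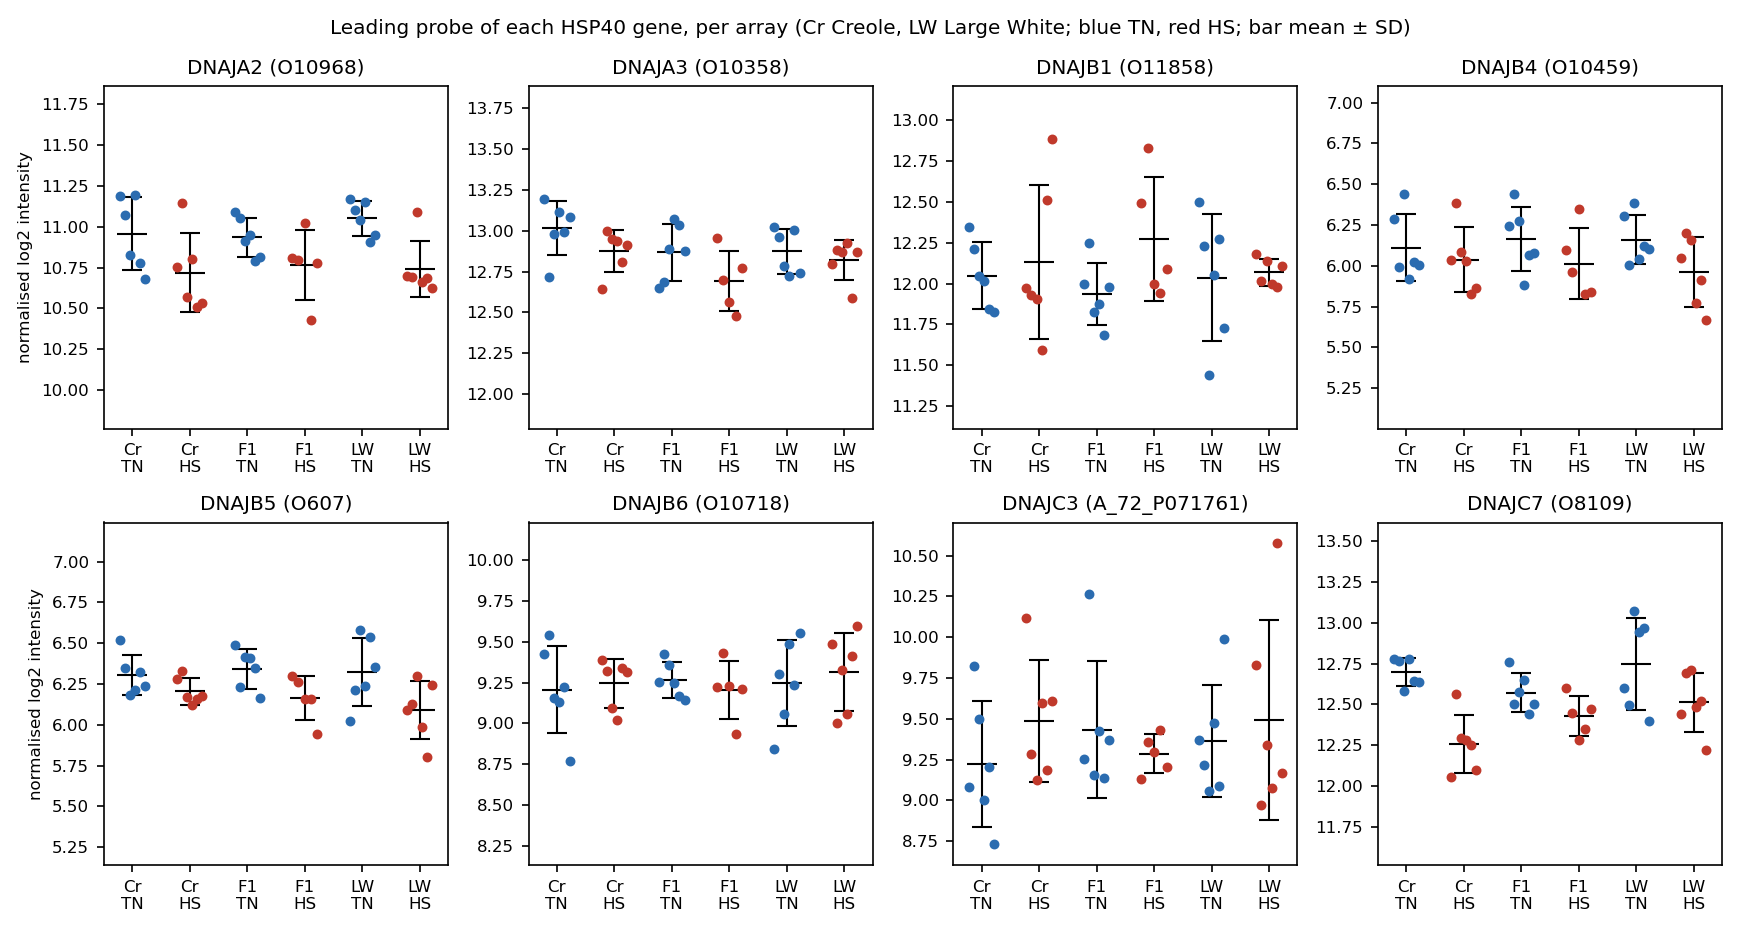
Normalised log2 intensity of the leading probe of each gene (y axis, each panel spanning the same range), per array, in the 6 groups (x axis). Bars are means ± SD of 6 arrays, or 5 in F1 HS. DNAJC7 shows Creole TN above Creole HS without overlap, DNAJB1 a few high HS arrays in Creole and F1, and DNAJC3 a wide spread in most groups.

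The markers and the brightness that moved with temperature were entered in the fit in turn, the muscle and connective tissue means after the data had been seen. With the leukocyte markers DNAJA2 remained past the threshold on both probes (-0.24 and -0.20, adjusted p = 0.0436 and 0.0384), and so did A_72_P179831 of DNAJC7 (-0.22, adjusted p = 0.0229). The leading probe of DNAJC7 (-0.17, adjusted p = 0.101) and DNAJB5 (-0.12, adjusted p = 0.237) did not. With brightness only A_72_P179831 passed (-0.21, adjusted p = 0.0111), and this probe alone also passed with the muscle markers (-0.21, adjusted p = 0.0318) and with the connective tissue markers (-0.25, adjusted p = 0.0213). The DNAJA2 probes differed by -0.15 and -0.16 with brightness (adjusted p = 0.135 and 0.0639). They differed by -0.21 and -0.17 with the muscle markers (adjusted p = 0.0938 and 0.0789) and by -0.23 and -0.19 with the connective tissue markers (adjusted p = 0.0821 and 0.0568). The calls over the array fell from 6654 to 2092 with brightness, 2411 with leukocyte, 2389 with muscle and 1317 with connective tissue markers. In each of these fits DNAJA2, DNAJB5 and DNAJC7 kept a negative sign. Over the 35 arrays the leading probe of DNAJA2 correlated with brightness at r = -0.653 (rho = -0.69) and with the leukocyte markers at r = -0.277. After removing group means these were -0.578 and 0.0204. For DNAJC7 they were -0.533 and -0.601 (-0.459 and -0.468 after removing group means), and for DNAJB5 -0.368 and -0.504 (-0.185 and -0.377). The part of these measures in the differences was not tested.

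**Figure D3:**
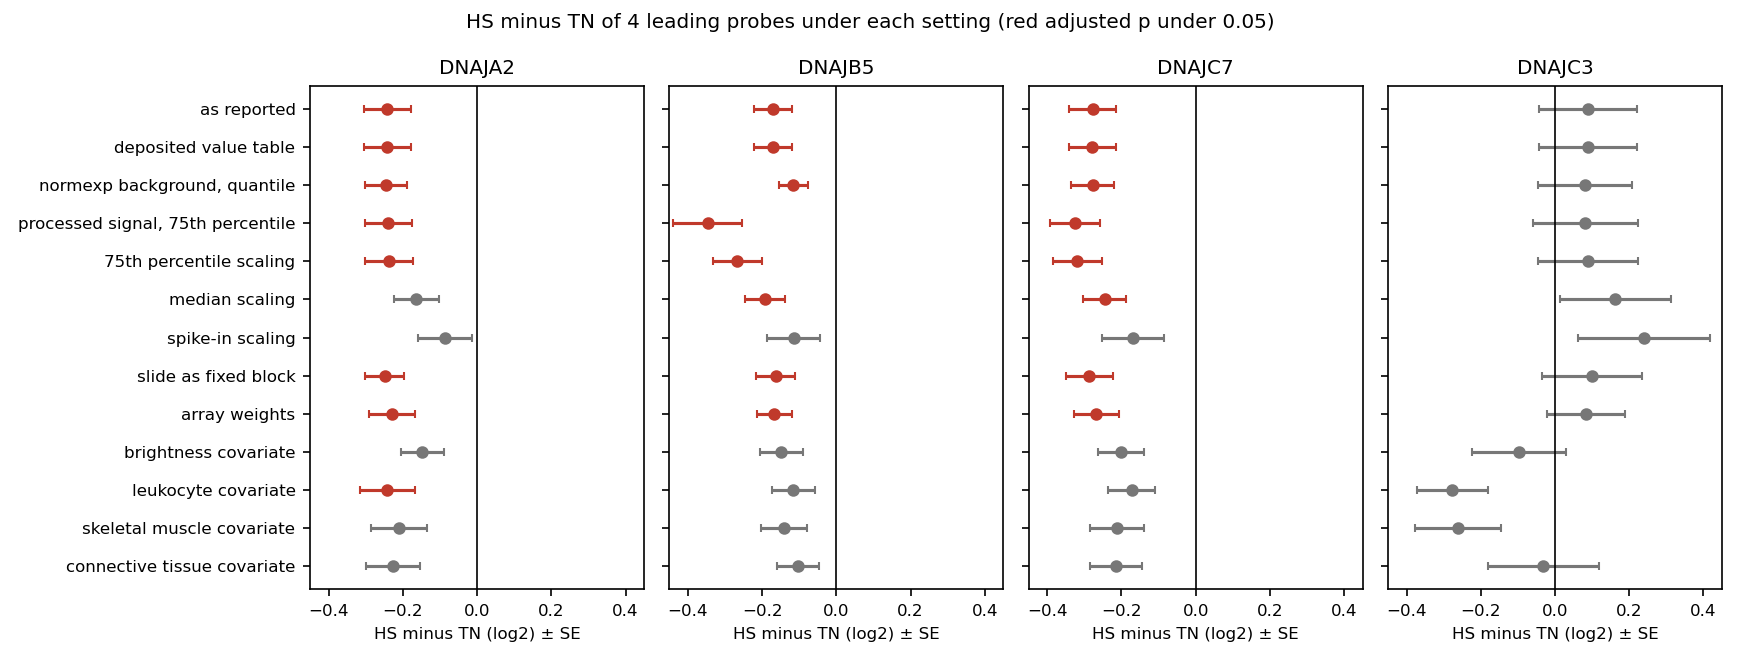
Difference between HS and TN (x axis, log2, ± SE) of the leading probes of DNAJA2, DNAJB5, DNAJC7 and DNAJC3 under the reported and 12 other settings (y axis). Red marks an adjusted p under 0.05. The first 3 genes stay left of 0 in all settings shown, from -0.09 to -0.25 for DNAJA2. All 3 lose the call with the spike-in scaling and with the brightness, muscle and connective tissue covariates. DNAJB5 and DNAJC7 also lose it with the leukocyte markers, and DNAJA2 with median scaling. DNAJC3 moves from 0.24 with the spike-in scaling to -0.28 with the leukocyte markers.

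Within breeds, DNAJC7 in Creole was the only gene of the 8 past the threshold in the fit without slide. O8109 differed there by -0.44 (SE 0.10, adjusted p = 0.0309) and A_72_P179831 by -0.41 (SE 0.09, adjusted p = 0.0277), with 6 of 6 HS arrays below the TN mean on each, while 1.91% of the array was called (1.03% higher, 0.874% lower). An unadjusted p under 0.05 was reached there by 3 of the 16 probes, against 21.5% of the array. In Large White the 2 probes differed by -0.24 and -0.29 (adjusted p = 0.242 and 0.122), in F1 the leading one by -0.14 (adjusted p = 0.819). In F1 and in Large White 0 of the 16 probes were called, where 0.00482% of the array was called in each. An unadjusted p under 0.05 was reached by 2 of them in F1, against 8.30% of the array, and by 4 in Large White, against 16.6%. DNAJA2 was lower by the leading probe in all breeds, by -0.24 in Creole, -0.17 in F1 and -0.31 in Large White, and DNAJB5 by -0.10, -0.18 and -0.23. The leading probe of DNAJB1 differed by 0.33 in F1 (SE 0.19, adjusted p = 0.69) against 0.09 in Creole and 0.03 in Large White. A_72_P260797 and A_72_P268464 were also highest in F1 (0.43 and 0.46). In contrast, A_72_P203192 gave -0.06 in F1, 0.36 in Creole and 0.13 in Large White, and A_72_P204112 gave 0.09, 0.16 and 0.09. The order of the breeds thus depended on the probe. With slide as a fixed block, O8109 in Creole gave -0.41 (adjusted p = 0.0568) and A_72_P179831 -0.35 (adjusted p = 0.0477). In Large White A_72_P179831 (-0.39, adjusted p = 0.0443) and O10968 of DNAJA2 (-0.39, adjusted p = 0.046) then passed. In that fit 1.06% of the array was called in Creole and 0.85% in Large White. The test of whether the temperature difference itself varied between breeds called 0 of the 16 probes (limma moderated F-test, smallest adjusted p = 0.963, 0 of 16 at an unadjusted p under 0.05), as it did over the array (0.00% called, 3.84% at the unadjusted level). The Creole call of DNAJC7 was lost without any 1 of 4 arrays (Creole TN replicate 1, Creole HS replicates 1, 5 and 6) on both probes, and without Creole TN replicate 5 or 6 or Creole HS replicate 3 on 1 of them.

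**Figure D4:**
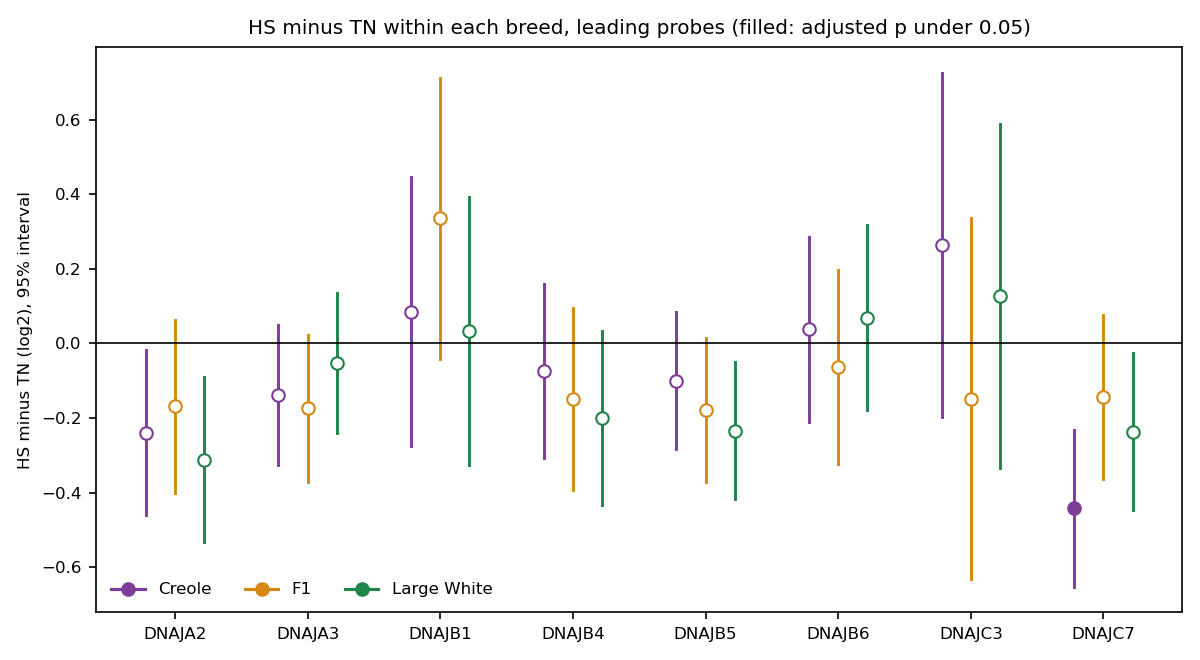
Difference between HS and TN (y axis, log2, with its 95% interval) of each leading probe (x axis) within Creole, F1 and Large White. Filled points mark an adjusted p under 0.05. The only filled point is DNAJC7 in Creole at -0.44, and for every gene the intervals of the breeds overlap.

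Breed made no called difference in any of the 16 probes. Between Creole and Large White, with temperature in the model, 3.64% of the array was called (1.73% higher in Creole, 1.92% lower). Here 2 probes reached an unadjusted p under 0.05, against 15.4% of the array, A_72_P204112 of DNAJB1 (Creole lower, -0.21, SE 0.10, adjusted p = 0.28) and O8109 of DNAJC7 (-0.15, SE 0.08, adjusted p = 0.323). The F1 pigs were set against the midpoint of their parent breeds, where 0.246% of the array was called (0.188% higher, 0.0578% lower). The leading probes differed from it by -0.11 (DNAJA3, adjusted p = 0.69, 95% interval -0.23 to 0.00264) to 0.02, and 0 of the 16 reached an unadjusted p under 0.05, against 7.35% of the array.

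The groups could be ordered by their means for each gene. For DNAJA2 and DNAJC7 the 3 TN groups stood above the 3 HS groups. For DNAJC7 the order ran from Large White TN (12.75) over Creole TN (12.70), F1 TN (12.57), Large White HS (12.51) and F1 HS (12.43) to Creole HS (12.26). Of these steps, that from Creole TN to F1 TN and that from F1 HS to Creole HS were larger than the pooled SD of the neighbours. For DNAJA2 only the step from F1 TN (10.94, SD 0.12) to F1 HS (10.77, SD 0.21) was. DNAJB4 and DNAJB5 also had the 3 TN groups on top, and DNAJB1 the 3 HS groups, with no step beyond the pooled SD. For DNAJA3, DNAJB6 and DNAJC3 the conditions were mixed in the order.

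Other genes of the pathway were also followed, and their share of calls was not tested against that of the array. These lists too were chosen with earlier results known, so the lists and the 8 genes cannot be ranked by their medians. Of 41 other J-domain proteins listed, 24 were measured, and 2 fell, 8.33% against 15.0% of all names. These were DNAJC30, a mitochondrial protein (-0.17, SE 0.05, adjusted p = 0.0101), and DNAJC21, which takes part in the making of ribosomes (-0.24, SE 0.08, adjusted p = 0.0424). None was called higher, 5 of the 24 had a positive sign, and the median was -0.05. The 24 ran from -0.33 (DNAJA4, SE 0.12, adjusted p = 0.055) to 0.12 (DNAJB14, SE 0.07, adjusted p = 0.263). Of 33 HSP70 proteins, nucleotide exchange factors and regulators listed, 23 were measured and 1 fell, 4.35% against 15.0% of all names. It was STUB1, the ubiquitin ligase that docks on HSP70 and HSP90 (-0.22, SE 0.07, adjusted p = 0.0214), the lowest of the 23. None was called higher, 9 had a positive sign, and the median was -0.03. The highest, HSPA2, stood just short of the threshold (0.40, SE 0.14, adjusted p = 0.0506).

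**Figure D5:**
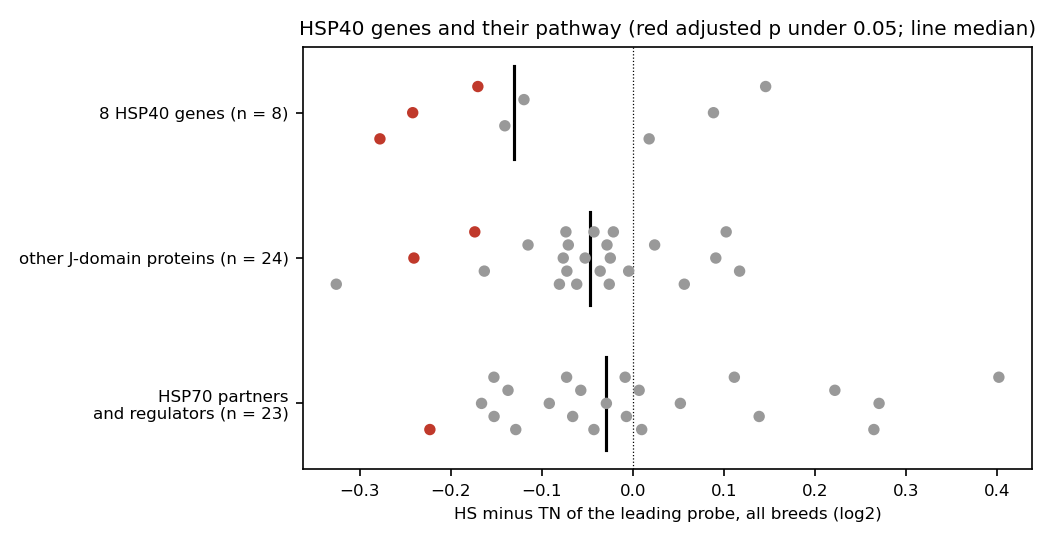
Difference between HS and TN over all breeds (x axis, log2) of the leading probe of each measured gene, for the 8 HSP40 genes, 24 other J-domain proteins and 23 HSP70 partners and regulators (y axis). Lines are medians, at -0.13, -0.05 and -0.03, and red marks an adjusted p under 0.05.

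Among the 8 leading probes themselves, the closest pairs over the 35 arrays were DNAJA2 with DNAJC7 (Pearson's r 0.607, Spearman's rho 0.62) and DNAJA2 with DNAJB4 (0.571 and 0.561). The most opposed pair was DNAJA3 with DNAJC3 (-0.556 and -0.531). DNAJB1 was closest to DNAJB6 (0.261 and 0.348). Of 8935 gene names searched, those most like each leading probe over the arrays were MRPS18A (Pearson's r 0.78) and MRPL46 (0.778) for DNAJA2, EVI5L and FERMT2 (both 0.761) for DNAJA3, FAM46C (0.664) and B9D2 (0.645) for DNAJB1, and NFIC (0.709) and USP14 (0.706) for DNAJB4. For DNAJB5 they were NLRC3 (0.76) and PTPRS (0.755), for DNAJB6 RAD9A (0.737) and UBE2NL (0.7), for DNAJC3 LRRC59 (0.958) and CALR (0.947), and for DNAJC7 UQCRFS1 and POLDIP2 (both 0.787). The points share slides, litters and the temperature groups, so these values describe the arrays. DNAJC3 thus had the closest partners of the 8 and DNAJB1 the most distant.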

How the data were processed

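The authors labelled muscle RNA with Cy3, hybridised it to Agilent porcine arrays and quantified them with Feature Extraction, whose version was 10.10.1.1 (file headers). Intensity on a linear scale stands in the deposited scanner files, and the deposited value table holds log2 values that the authors made by quantile normalisation and a filter on expressed probes. Here the median spot intensity was quantile-normalised without background subtraction over 60306 non-control spots, log2 was taken and 105 outlier spots were set to missing. A probe was kept if 75% or more of the arrays of any group had it well above background. Probes were named by the gene name in the files. The reference gene tables (Sscrofa11.1) matched 4 of the 16 probes by accession, all under the same name, and added none.

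Tests were run with limma 3.58.1 in R 4.3.3 on all 35 arrays and adjusted by Benjamini-Hochberg over 41517 probes. Temperature and breed were fitted additively, and differences within breeds and the interaction (moderated F-test) with 1 mean per group. The random terms of the authors' model (pen, slaughter day, father, mother) could not be fitted, since no label gives them. The fits were also run on simulated data with independent noise on each array. Those data cannot show what shared litters, pens, slaughter days or slides do to the tests. Genes were named by rule: the 8 genes by every probe, called genes of the other lists (at most 6 each), and the 2 names most like each leading probe. The lowest and highest genes of the other pathway lists were named as well. The genes and lists were chosen with earlier results of these data known. Replicate numbers only name the arrays, in accession order. The number of arrays limits the precision. Other scalings, signals, filters, slide, covariates, array weights and leaving out each array were tried.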

Additional observations from a re-analysis of the deposited data

Results flagged for a closer look

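In each of the 6 groups, the highest and lowest array was checked for its gap to the next array as a share of the group's range, by Dixon's 95% limit. Of 96 combinations of probe and group 9 passed it, where chance would give about 4.8 if they were independent. They are not, since probes of 1 gene correlate and the same array recurs below, so no excess can be read from these counts. F1 TN replicate 2 was the highest on all 3 probes of DNAJC3, at 10.26 on A_72_P071761 against 9.42 for the next array (gap ratio 0.746), at 9.14 on A_72_P539958 (0.686) and at 9.52 on O9613 (0.676). The same array was the highest on A_72_P203192 of DNAJB1 (gap ratio 0.841). Large White HS replicate 2 was the lowest on 3 probes of DNAJB1, A_72_P204112 (0.688), A_72_P260797 (0.626) and A_72_P268464 (0.719). Large White HS replicate 3 was the highest on O10968 of DNAJA2, at 11.09 (0.848). F1 TN replicate 1 was the highest on A_72_P179831 of DNAJC7, at 12.71 (0.778). Leaving out any 1 of these arrays left 5 of the 16 probes called over all breeds. For no probe did every HS array of 1 breed move opposite to every HS array of another.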

How the results depend on the processing

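Over all breeds, 5 of 16 probes were called as reported, against 16.0% of the array. Without any 1 of the 35 arrays the count was 5 to 5 (5257 to 8558 over the array). The count was 3 with median scaling (16% of the array). With spike-in scaling it was 0 (11.3% of the array), and 5 of 16 reached an unadjusted p under 0.05. It was 1 each with brightness (5.04% of the array), skeletal muscle (5.75%) or connective tissue markers (3.17%) as a covariate, the last 2 chosen after seeing the data. It was 4 with leukocyte markers (5.81% of the array), where the probe of DNAJB5 and O8109 of DNAJC7 were lost and A_72_P539958 of DNAJC3 was gained. It was 7 with scaling to the 75th percentile (22.4% of the array) and 6 with the processed signal (17.5%). The calls over the array moved from 6654 to 2092, 2411, 2389 and 1317 with brightness, leukocyte, muscle and connective tissue covariates. Within Creole the 2 calls (1.91% of the array) became 1 with slide as a fixed block (1.06%) and 0 with spike-in scaling (0.523%). They became 0 with each of the 4 covariates, where 0 to 0.145% of the array was called. With an array left out they were 0 to 2 (0 to 1663 over the array). Within F1 the count was 0, and 1 with array weights, where 1.72% of the array was called (0 to 0 with an array left out). Within Large White it was 0, and 2 with slide as a fixed block, where 0.85% of the array was called. With an array left out it was 0 to 1, and 1 without Large White TN replicate 6, where 1064 probes of the array were called. For the interaction and both breed comparisons it was 0 to 0 with an array left out. The sign of DNAJB6 reversed to -0.042 with brightness, -0.063 with leukocyte and -0.10 with muscle markers, and ranged from -0.0115 to 0.0401 when an array was left out, reversing to -0.01 without Creole TN replicate 6 or Large White TN replicate 1 and to -0.0021 without Large White HS replicate 6. That of DNAJC3 reversed to -0.10, -0.28, -0.26 and -0.031 with the brightness, leukocyte, muscle and connective tissue covariates. The leading probes of DNAJA2, DNAJA3, DNAJB1, DNAJB4, DNAJB5 and DNAJC7 kept their sign in all 17 alternatives and with any array left out. The cause of these shifts was not tested. The mean over all probes of a name called 3 of 8 names. Adding probes by accession added none. No analysis paired by litter was possible because no label gives the litter or parents of a pig.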
